A study of Mus musculus with 12 samples.

Results

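The 9 X-linked mouse genes described here act in protein and lipid glycosylation or in sterol synthesis. They were chosen by name (Slc35a2, Alg13, Piga, C1galt1c1, Magt1, Ssr4, Ebp, Nsdhl and Mbtps2) from a table of 952 X-linked genes, and all 9 had a value in each of the 8 ChIP libraries, as did 698 genes in all.

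Glycosylation attaches sugar chains to proteins and lipids along the endoplasmic reticulum and Golgi. Slc35a2 carries UDP-galactose into the Golgi, Alg13 is part of the enzyme that extends the lipid-linked sugar precursor of N-glycans, and Piga is the catalytic subunit that starts the synthesis of GPI anchors. C1galt1c1 encodes Cosmc, the chaperone of the galactosyltransferase that extends O-glycans. Magt1 is a subunit of the oligosaccharyltransferase, which transfers N-glycans to proteins, and Ssr4 is a subunit of the translocon-associated protein complex. Ebp and Nsdhl are enzymes of the late steps of cholesterol synthesis, and Mbtps2 is the membrane protease that releases the sterol-sensing transcription factors of the SREBP family. On the inactive X chromosome of female cells, silencing comes with H3K27me3, the mark of the Polycomb machinery, and with H3K9me3, a mark of constitutive heterochromatin. SmcHD1 is a chromosomal protein of the SMC family that is needed to keep the inactive X silent.

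Chromatin was immunoprecipitated for H3K9me3 or H3K27me3 and sequenced (ChIP-seq) from embryonic fibroblasts (MEF) at stage E13.5 and from epiblast stem cells (EpiSC) derived at stage E6.5, to ask how each mark depends on SmcHD1. The SmcHD1-deficient cells were Smchd1 MD1/MD1 Xist deltaA/+ (MD1) and the control cells Smchd1 +/+ Xist deltaA/+ (WT). All were female, all carried the Xist deletion on 1 X, which keeps that X from being inactivated, and all came from crosses of C57BL6/J with JF1 x C57BL6/J F1 animals. Each combination of mark, genotype and cell type is 1 library, and the labels do not say how many embryos or lines stand behind it. No difference therefore has a replicate check and no test across samples was possible. The table holds X-linked genes alone, so neither the cell types nor the loss of SmcHD1 was checked against marker genes.

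Values are log2 enrichment, as the authors deposited them and read as the ratio of ChIP to matched input, so 0 is the level of input. Each library carries a scaling constant that the sources used here do not give, and they do not say whether reads of the inactive X, the active X or both were counted. A library's own scale does not alter the rank of a gene within it, so ranks are given beside the values. A gene is counted as changed when the MD1 and WT values differ by at least 2-fold, which is 1 on the log2 scale. The 95% intervals come from whole-number ChIP and input counts recovered from the values and cover counting error only. Summed over genes, the recovered counts per library ran from 33117 in H3K9me3 of MD1 EpiSCs to 1804080 in H3K27me3 of MD1 EpiSCs, and from 181233 to 327173 for input. Fewer cells carrying a mark and less of the mark per cell cannot be told apart in such libraries.

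The promoters of Slc35a2 and Ebp are shown because these genes lie close together on the X and took different courses for H3K27me3 in MEFs. The sequences run from 250 bases before the start of the gene to 50 bases after it, are from RefSeq (build GRCm38.p6, which is not the build of the ChIP table), and have each CpG (CG) in capitals. Slc35a2 lies at chrX:7883994-7884293 on the plus strand and Ebp at chrX:8193463-8193762 on the minus strand in that build.
Slc35a2: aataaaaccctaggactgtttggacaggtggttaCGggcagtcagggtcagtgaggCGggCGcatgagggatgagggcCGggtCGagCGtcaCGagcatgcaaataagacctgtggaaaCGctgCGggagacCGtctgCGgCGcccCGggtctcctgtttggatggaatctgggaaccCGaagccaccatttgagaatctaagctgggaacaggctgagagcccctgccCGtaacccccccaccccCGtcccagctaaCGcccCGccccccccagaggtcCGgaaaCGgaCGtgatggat
Ebp: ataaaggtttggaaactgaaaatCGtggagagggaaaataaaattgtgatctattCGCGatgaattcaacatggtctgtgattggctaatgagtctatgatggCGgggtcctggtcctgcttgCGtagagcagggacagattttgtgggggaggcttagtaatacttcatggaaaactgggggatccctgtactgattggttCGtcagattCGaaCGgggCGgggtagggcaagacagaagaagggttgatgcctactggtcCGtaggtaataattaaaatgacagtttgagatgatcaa
The Slc35a2 window held 21 CpGs and the Ebp window 10, against a median of 7 over 1223 X-linked promoter windows. Of the 9 genes 8 were matched in the promoter table, and the 7 windows other than that of Ebp held between 20 and 28 CpGs. At least 1 CpG was found in 94.6% of all 32851 windows. The core of the sterol response element, searched as TCACNCCAC on both strands, was found in 0 of the 8 windows. It was found in 1.24% of all windows and 1.14% of the X-linked windows. The CCAAT box, searched as CCAAT on both strands, was found in 5 of the 8 (Ebp, Nsdhl, Magt1, Alg13 and Piga). Its share was 37.4% of all windows and 45.0% of the X-linked windows. These matches describe the letters of the windows only, since the ChIP values cover whole genes.

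In MD1 MEFs both marks were lower over most of the 9 genes. H3K27me3 was at least 2-fold lower in 7 of 9, where 24.0% of the 739 genes measured in both MEF genotypes were. A value at least 2-fold higher was seen in 0 of 9, against 22.3% of all genes. The median change of the 9 genes was −2.12, and that of all genes was 0.34. The exceptions were Ebp, with a change of 0.35, and Alg13, with −0.63. H3K9me3 was at least 2-fold lower in 8 of 9 genes, against 51.3% of all genes, and Nsdhl (−0.41) was the gene under the threshold. The median H3K9me3 change was −2.07 for the 9 genes and −1.02 for all genes. Libraries were then centred on the genes that were not rich in H3K9me3 in WT cells. After this, H3K9me3 was at least 2-fold lower in 5 of the 9 and H3K27me3 in 7. Over all 739 genes, the counts after the same centring were 187 for H3K9me3 and 193 for H3K27me3. That centring added 0.99 to every H3K9me3 change in MEFs and −0.27 to every H3K27me3 change.

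Ranks within a library, which do not depend on its scale, also placed the 9 genes low in H3K27me3 of MD1 MEFs. All 9 genes lay under the median of the 754 genes measured in the MD1 MEF library, higher than between 1.46% and 33.9% of the other genes. In the WT MEF library 4 of the 9 lay under the median, and the ranks ran from 13.0% to 98.0%. For H3K9me3, 7 of the 9 lay under the library median in MD1 MEFs and 3 of 9 in WT MEFs.

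In MD1 EpiSCs, H3K9me3 was lower while H3K27me3 moved in different directions. H3K9me3 was at least 2-fold lower in 8 of the 9 genes, a share near the 82.9% of 708 genes that were lower, and Ssr4 (−0.10) was the gene under the threshold. At least 2-fold higher H3K9me3 was seen in 0 of 9, against 1.13% of all genes in EpiSCs and, likewise for 0 of 9, 0.677% in MEFs. The median H3K9me3 change of the 9 genes was −4.02, against −2.98 over all genes. The recovered H3K9me3 counts summed to 33117 in MD1 EpiSCs and 188886 in WT EpiSCs, beside input sums of 181233 and 182193. Such ChIP sums over X-linked genes hold the mark's signal as well as sequencing depth, and the part of each was not tested. After centring, which added 1.19 to every H3K9me3 change in EpiSCs, 6 of the 9 were at least 2-fold lower and Ssr4 was 1.09 higher. Over all 708 genes, 452 were then at least 2-fold lower in H3K9me3 and 38 at least 2-fold higher. H3K27me3 was at least 2-fold higher in 3 of the 9 (Slc35a2, Ebp and C1galt1c1), against 22.7% of all genes, and at least 2-fold lower in Ssr4 alone, against 11.3% of all genes. Without the 10% of genes with the lowest mean H3K27me3, which include Ebp and C1galt1c1, Slc35a2 was the only gene of the 9 that was higher. The median H3K27me3 change of the 9 genes was −0.28 as deposited and 0.19 after centring, which added 0.47 to every change. In ranks, 5 of 9 genes lay under the library median of H3K27me3 in MD1 EpiSCs and likewise in WT EpiSCs.

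**Figure D1:**
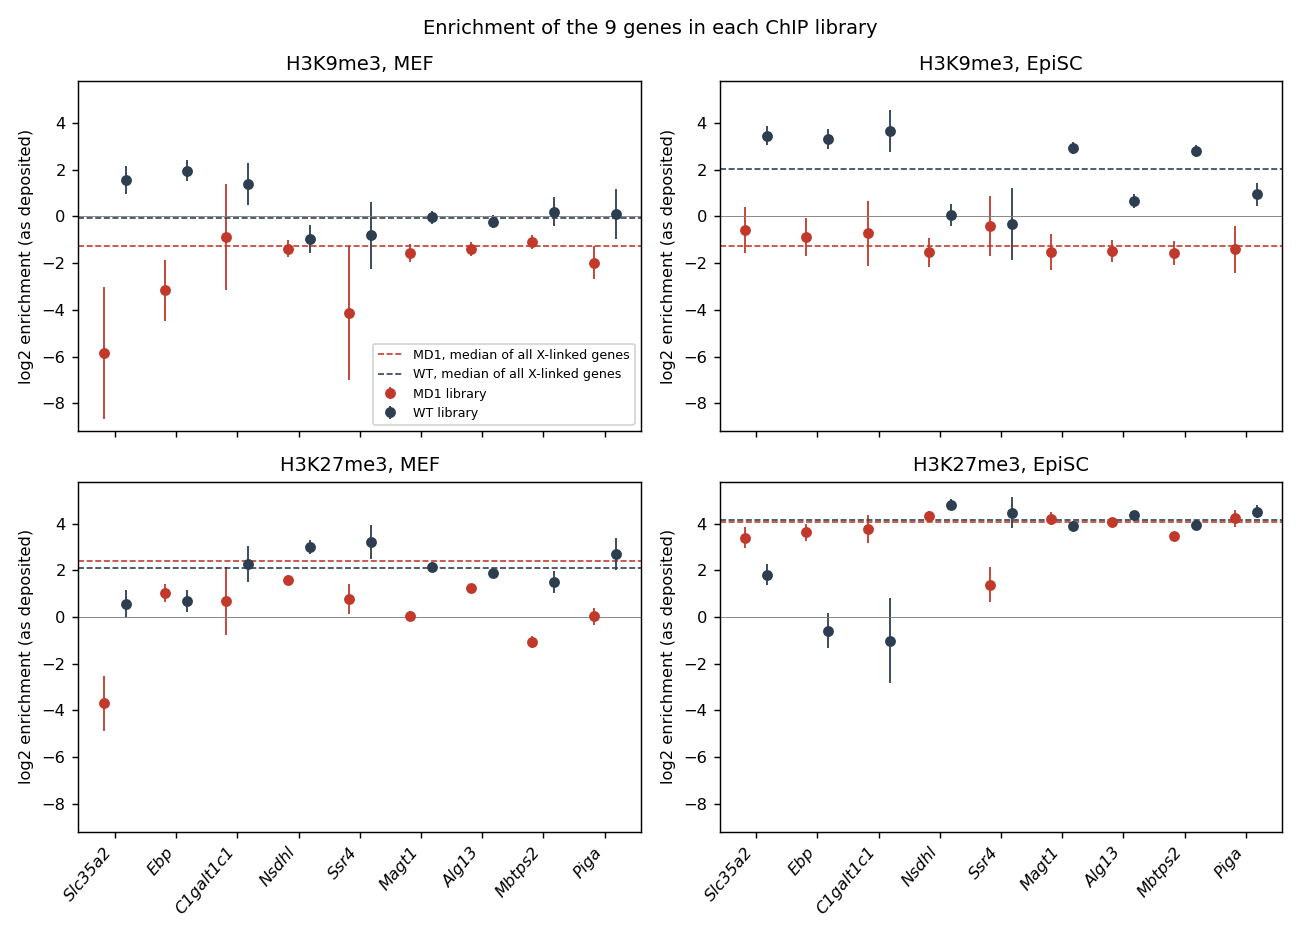
Deposited log2 enrichment of the 9 genes, in chromosomal order along the horizontal axis, by mark and cell type, with MD1 in red to the left of WT in dark blue. Points are single libraries, bars are 95% counting intervals and dashed lines are the median of all X-linked genes in that library. In H3K27me3 of MEFs all 9 MD1 points lie under the MD1 line.

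Among the glycosylation genes, Slc35a2 (mm9 X, 7461370 to 7471618, plus strand) had low values of both marks in MD1 MEFs. Its H3K9me3 value was −5.85 in MD1 MEFs and 1.57 in WT MEFs, a change of −7.42 (−10.32 to −4.51). The MD1 value was the lowest of 754 genes, and the WT value was higher than that of 90.6% of genes. The MD1 value rests on a recovered ChIP count of 1 beside an input count of 110, and the change was −4.71 with a pseudocount of 0.1 added to the linear enrichment. H3K27me3 at Slc35a2 was −3.71 in MD1 MEFs and 0.55 in WT MEFs, a change of −4.26 (95% counting interval −5.60 to −2.92) that was −3.15 with the pseudocount. In EpiSCs, H3K9me3 at Slc35a2 was −0.57 in MD1 and 3.46 in WT, a change of −4.02 (−5.10 to −2.95). H3K27me3 in EpiSCs went the other way, with 3.40 in MD1 and 1.82 in WT, a change of 1.58 (0.94 to 2.23). H3K27me3 at Slc35a2 was thus higher than WT in MD1 EpiSCs and lower than WT in MD1 MEFs.

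C1galt1c1 (X, 35983960 to 35988320, minus strand), which encodes the chaperone Cosmc, had less H3K9me3 and more H3K27me3 in MD1 EpiSCs than in WT EpiSCs. H3K27me3 at C1galt1c1 was 3.76 in MD1 EpiSCs and −1.02 in WT EpiSCs, a change of 4.78 (2.87 to 6.69). H3K9me3 was −0.73 in MD1 EpiSCs and 3.67 in WT EpiSCs, a change of −4.40 (−6.06 to −2.74). The WT H3K27me3 value rests on a ChIP count of 3 and an input count of 13, and its interval of −2.83 to 0.79 includes input. WT H3K9me3 at C1galt1c1 was higher than in 84.5% of genes. In MEFs H3K27me3 was 0.68 in MD1 and 2.27 in WT, a change of −1.59, and H3K9me3 was −0.87 in MD1 and 1.39 in WT, a change of −2.27. The gene spans 4361 bases, and its recovered input counts were 7 in MD1 and 17 in WT MEFs. On these counts the intervals of both MEF changes (−3.23 to 0.06 and −4.71 to 0.17) include 0. Recovered counts are the smallest that match. In EpiSCs the input counts were 24 in MD1 and 13 in WT, although input summed over genes was highest in MD1 MEFs (327173). The MD1 MEF count may therefore be a multiple of 7, and the real intervals narrower than printed.

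Ssr4 (X, 71032367 to 71036167, plus strand), the translocon-associated subunit, had lower H3K27me3 in MD1 cells of both types. H3K27me3 was 0.76 in MD1 MEFs and 3.21 in WT MEFs, a change of −2.45 (−3.43 to −1.47), and 1.39 in MD1 EpiSCs and 4.47 in WT EpiSCs, a change of −3.09 (−4.08 to −2.09). Its WT MEF value was higher than that of 98.0% of genes, and its MD1 EpiSC value was higher than that of 5.03%. H3K9me3 at Ssr4 was −4.15 in MD1 MEFs and −0.81 in WT MEFs, on ChIP counts of 1 and 5. The change of −3.35 (−6.55 to −0.14) was −2.10 with the pseudocount. In EpiSCs it was −0.40 (−1.70 to 0.89) in MD1 and −0.31 (−1.85 to 1.24) in WT, on ChIP counts of 6 and 4. Both intervals include input, and the interval for the change was −2.11 to 1.92.

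Magt1 and Piga had less H3K27me3 in MD1 MEFs than in WT MEFs, while their changes in EpiSCs were under 2-fold. Magt1 (X, 103163424 to 103207238, minus strand), the oligosaccharyltransferase subunit, had an H3K27me3 value of 0.04 in MD1 MEFs and 2.16 in WT MEFs, a change of −2.12 (−2.40 to −1.83). In EpiSCs it had 4.21 in MD1 and 3.90 in WT, a change of 0.31 (−0.02 to 0.65) that was 0.78 after centring. H3K9me3 at Magt1 was −1.57 in MD1 MEFs and −0.03 in WT MEFs, a change of −1.53 that was −0.55 after centring, and −1.52 in MD1 EpiSCs and 2.93 in WT EpiSCs. The EpiSC change of −4.46 (−5.27 to −3.65) was the largest H3K9me3 change among the 9 genes in that cell type, with an interval that overlapped those of Mbtps2, C1galt1c1, Ebp and Slc35a2. Piga (X, 160857719 to 160871847, plus strand), which starts GPI anchor synthesis, had H3K27me3 of 0.03 in MD1 MEFs and 2.68 in WT MEFs, a change of −2.65 (−3.42 to −1.88). Its EpiSC values were 4.23 in MD1 and 4.50 in WT, a change of −0.28 (−0.73 to 0.18) that was 0.19 after centring. H3K9me3 at Piga was −1.98 in MD1 MEFs and 0.10 in WT MEFs, and −1.40 in MD1 EpiSCs and 0.94 in WT EpiSCs.

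Alg13 (X, 140752509 to 140808991, plus strand), the longest of the 9 genes at 56483 bases, had H3K27me3 changes under 2-fold in both cell types. H3K27me3 at Alg13 was 1.26 in MD1 MEFs and 1.89 in WT MEFs, a change of −0.63 (−0.86 to −0.41), which lies beyond counting error and under 2-fold. In EpiSCs it was 4.09 in MD1 and 4.37 in WT, a change of −0.28 (−0.52 to −0.05) that became 0.18 after centring. H3K9me3 was −1.38 in MD1 MEFs and −0.22 in WT MEFs, a change of −1.16 that was −0.17 after centring. In EpiSCs it was −1.48 in MD1 and 0.65 in WT, a change of −2.13 that was −0.94 after centring. The 2-fold H3K9me3 calls at Alg13 therefore depended on the scaling in both cell types.

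Of the sterol genes, Ebp (X, 7762457 to 7770638, minus strand), the sterol isomerase, had more H3K27me3 in MD1 EpiSCs, as C1galt1c1 did, and an H3K27me3 change within counting error in MEFs. H3K27me3 at Ebp was 3.62 in MD1 EpiSCs and −0.59 in WT EpiSCs, a change of 4.21 (3.39 to 5.03). H3K9me3 was −0.89 in MD1 EpiSCs and 3.31 in WT EpiSCs, a change of −4.20 (−5.13 to −3.27). In MEFs H3K27me3 was 1.02 in MD1 and 0.67 in WT, and the interval of the change ran from −0.27 to 0.97. H3K9me3 was −3.17 in MD1 MEFs and 1.96 in WT MEFs, a change of −5.13 (−6.50 to −3.75) that was −4.24 with the pseudocount, and the WT value was higher than that of 94.0% of genes. The MD1 MEF value of H3K9me3 rests on a ChIP count of 5 beside an input count of 86.

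Nsdhl (X, 70163860 to 70203867, plus strand), the sterol dehydrogenase, was marked by H3K27me3 rather than H3K9me3 in WT cells of both types. H3K27me3 was 1.60 in MD1 MEFs and 3.002 in WT MEFs, a change of −1.41 (−1.75 to −1.06), and 4.31 in MD1 EpiSCs and 4.81 in WT EpiSCs, a change of −0.50 (−0.81 to −0.20) that was −0.04 after centring. Its WT H3K27me3 values were higher than those of 94.0% of genes in MEFs and 87.6% in EpiSCs. H3K9me3 at Nsdhl was −1.37 in MD1 MEFs and −0.97 in WT MEFs, a change of −0.41 (−1.11 to 0.30) that was 0.58 after centring. In EpiSCs H3K9me3 was −1.53 in MD1 and 0.08 in WT, a change of −1.61 that was −0.42 after centring.

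Mbtps2 (X, 153985754 to 154036647, minus strand), the protease that activates SREBP factors, had H3K27me3 under input in MD1 MEFs. H3K27me3 was −1.06 in MD1 MEFs and 1.49 in WT MEFs, a change of −2.55 (−3.07 to −2.03). In EpiSCs it was 3.47 in MD1 and 3.93 in WT, a change of −0.45 (−0.73 to −0.18) that was 0.01 after centring. H3K9me3 at Mbtps2 was −1.10 in MD1 MEFs and 0.20 in WT MEFs, a change of −1.30 that was −0.31 after centring. In EpiSCs it was −1.55 in MD1 and 2.80 in WT, a change of −4.36 (−4.93 to −3.78). Yy2, a transcription factor gene, lies within Mbtps2 on the same strand over 2867 bases, so reads there may count for both. Yy2 itself had H3K27me3 of −1.62 in MD1 MEFs and 1.11 in WT MEFs.

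**Figure D2:**
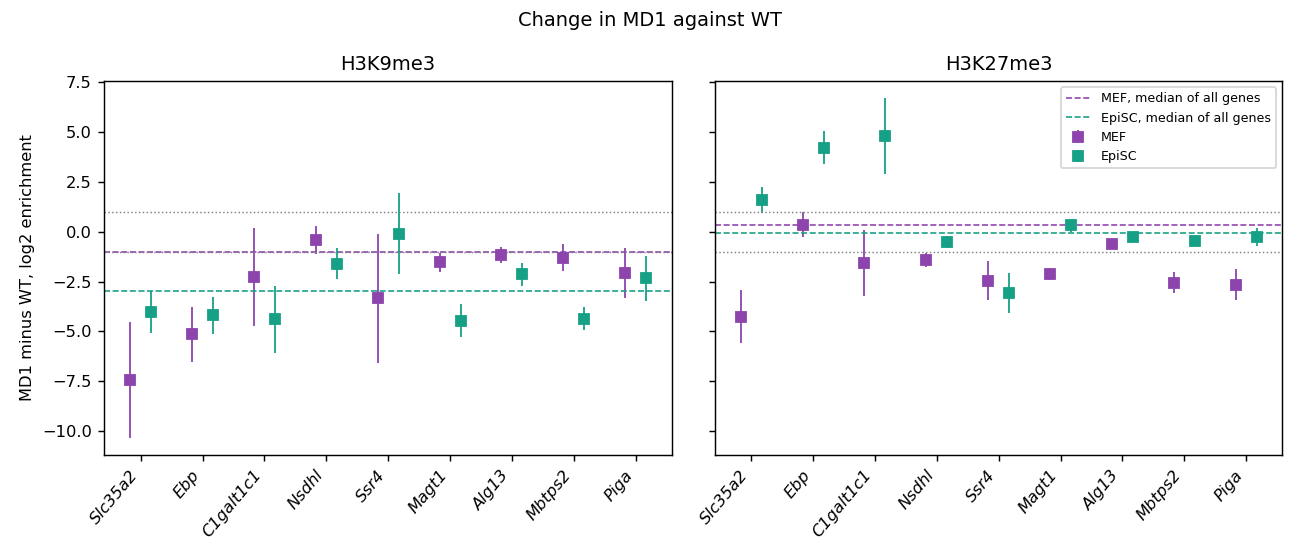
Change in log2 enrichment, MD1 minus WT, for the 9 genes in MEFs (purple) and EpiSCs (green), with 95% counting intervals. Dashed lines are the medians of all genes with values in both genotypes and dotted lines mark 2-fold. The H3K27me3 changes at Slc35a2 are −4.26 in MEFs and 1.58 in EpiSCs, and those at Ebp are 0.35 and 4.21.

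The 3 genes with higher H3K27me3 in MD1 EpiSCs were also the 3 of the 9 that were H3K9me3-rich, meaning at least 2-fold over input, in WT MEFs. In the WT EpiSC library 5 of the 9 were H3K9me3-rich, namely those 3 with Magt1 and Mbtps2, and 64.0% of 719 genes were. In the WT MEF library 20.3% of 747 genes were rich. None of the 9 was rich in either MD1 library, where 2.92% of genes in MEFs and 5.30% in EpiSCs were. Joint calls of lower H3K9me3 with higher H3K27me3 were made for 3 of the 9 in EpiSCs, against 22.5% of all genes, and for 0 of 9 in MEFs, against 10.6%. In MEFs lower H3K9me3 with lower H3K27me3 was the joint call for 6 of the 9 (Slc35a2, C1galt1c1, Ssr4, Magt1, Mbtps2 and Piga), against 18.8% of all genes, and in EpiSCs for 0 of 9, against 7.77%. After centring, the MEF H3K9me3 changes of Magt1 (−0.55) and Mbtps2 (−0.31) were under 2-fold. The counting intervals of both MEF changes at C1galt1c1 included 0. At Ssr4 the MEF H3K9me3 change rests on ChIP counts of 1 in MD1 and 5 in WT, with an interval of −6.55 to −0.14. After centring that change was −2.36, within its interval half-width of 3.21.

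Among the H3K27me3 values of MD1 MEFs, Slc35a2 was lowest and Mbtps2 next, and their counting intervals overlapped neither each other nor those of the next gene. Above them came Piga, Magt1, C1galt1c1, Ssr4, Ebp, Alg13 and Nsdhl in rising order, and each of these overlapped its neighbour in the order within counting error. Enrichment is a ratio to the input of the same gene, and whether gene length plays a part in this order was not tested. Under input were Slc35a2 and Mbtps2, 2 of the 9, in MD1 MEFs, where 134 of 754 genes were, and 0 of 9 in WT MEFs, where 50 of 747 were. In MD1 EpiSCs 0 of 9 were under input, where 17 of 736 genes were, and in WT EpiSCs Ebp and C1galt1c1 were, among 72 of 719 genes, with counting intervals that include input (−1.33 to 0.16 at Ebp).

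MEFs and EpiSCs differed most in the H3K27me3 change at C1galt1c1, by −6.36 (MEF change minus EpiSC change, 95% counting interval −8.89 to −3.84), and at Slc35a2, by −5.84 (−7.33 to −4.36). Ebp differed by −3.86, Magt1 by −2.43, Piga by −2.37, Mbtps2 by −2.10, Nsdhl by −0.90 and Alg13 by −0.35, each with an interval under 0. The median of this difference over 698 genes was −0.0025. At Ssr4 it was 0.64 (−0.76 to 2.03). Centring added −0.74 to each of these differences and left −0.10 at Ssr4. Slc35a2 and C1galt1c1 were at least 2-fold lower in MD1 MEFs and at least 2-fold higher in MD1 EpiSCs, a combination found in 2.87% of those genes. The interval of the MEF change at C1galt1c1 (−3.23 to 0.06) included 0, and its WT EpiSC value rests on a ChIP count of 3.

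**Figure D3:**
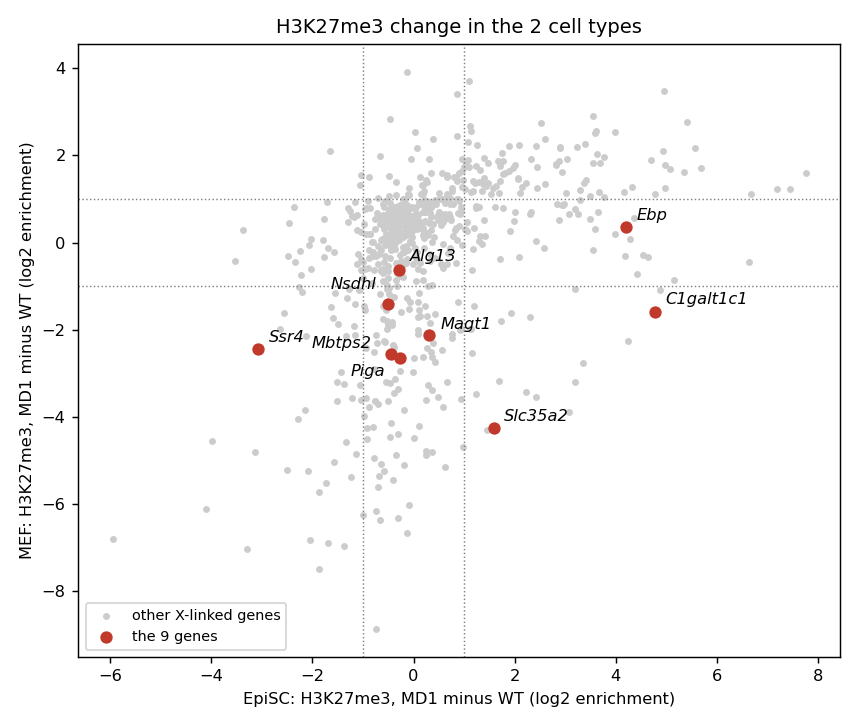
H3K27me3 change, MD1 minus WT in log2 enrichment, in EpiSCs on the horizontal axis and in MEFs on the vertical axis, for the 9 genes in red and the other X-linked genes in grey. Dotted lines mark 2-fold. Slc35a2 and C1galt1c1 lie in the lower right field (higher in EpiSCs, lower in MEFs), Ebp lies to the right, and Ssr4 is in the lower left field.

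The stretch from Slc35a2 to Ebp spans 309 kb and holds 16 genes with all values. H3K9me3 was at least 2-fold lower in MD1 in all 16 in MEFs, where 51.3% of all genes were, and in all 16 in EpiSCs, where 82.9% were. H3K27me3 in MEFs did not follow it: 5 of the 16 were at least 2-fold lower, 5 were at least 2-fold higher and the rest were under 2-fold, where 24.0% of all genes were lower and 22.3% higher. The lower ones were Slc35a2, Pqbp1, Timm17b, Suv39h1 and Tbc1d25. The higher ones were Pcsk1n, Eras, Gata1, Glod5 and Was. Pqbp1, 0.03 kb from Slc35a2, had H3K27me3 of −3.87 in MD1 MEFs and 0.91 in WT MEFs, while Porcn, 0.34 kb beyond Ebp, had 1.66 in MD1 and 0.04 in WT. In EpiSCs 13 of the 16 were at least 2-fold higher in H3K27me3 and 0 were lower, against 22.7% and 11.3% of all genes.

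**Figure D4:**
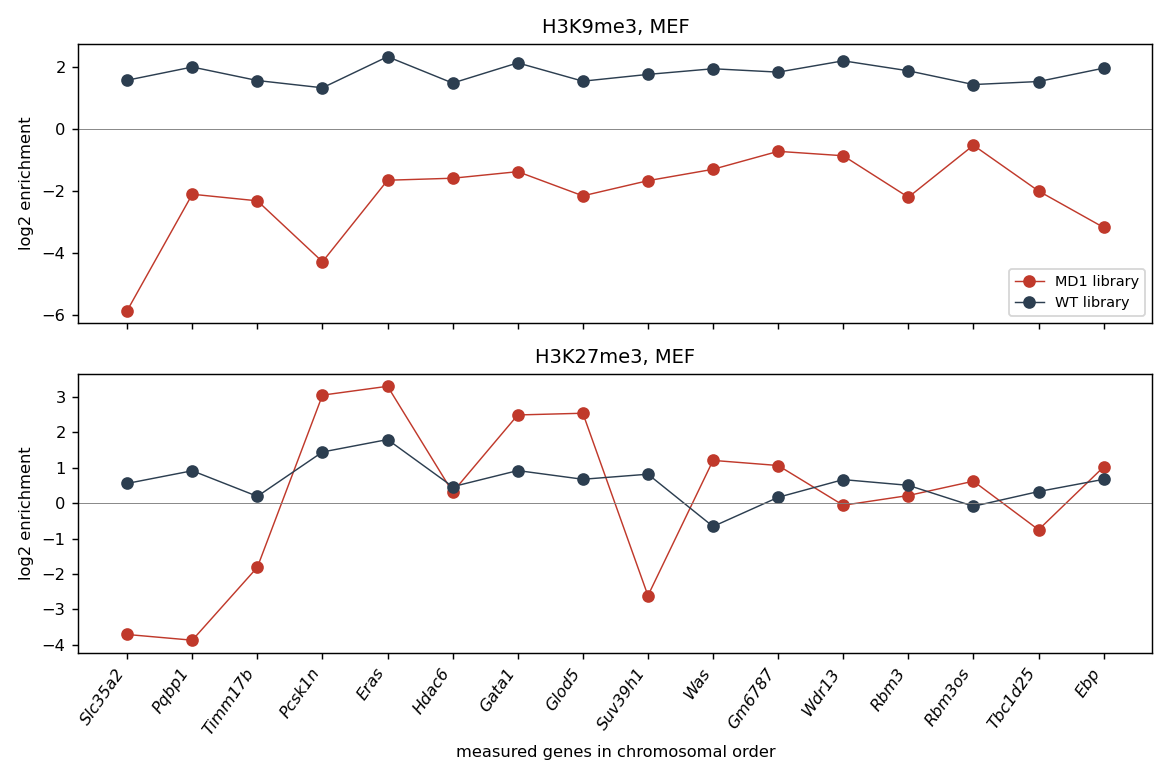
Deposited log2 enrichment of H3K9me3 (top) and H3K27me3 (bottom) in MEFs for the 16 measured genes from Slc35a2 to Ebp, in chromosomal order, with MD1 in red and WT in dark blue. The 2 libraries are apart at each gene for H3K9me3, and cross several times for H3K27me3.

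Each gene was also set beside the nearest gene with all values on either side. In EpiSCs the H3K27me3 call of the gene was that of its neighbour in 14 of 18 such pairs. Of these, 9 were pairs with both genes under 2-fold, as most genes were in EpiSCs, and 5 were pairs changed in the same direction. Of all genes in EpiSCs, 11.3% were lower and 22.7% higher. In MEFs the call was the same in 8 of 18 pairs, 2 with both genes under 2-fold and 6 changed in the same direction. Of all genes in MEFs, 24.0% were lower and 22.3% higher. How often neighbours at large share a call was not counted. At Ebp the EpiSC neighbours Tbc1d25 and Porcn changed by 4.88 and 5.36, and at C1galt1c1 the neighbours Mcts1 and 6030498E09Rik by 3.19 and 5.08. In MEFs, both neighbours were at least 2-fold lower in H3K27me3 at 2 of the 7 genes that were lower. These were Slc35a2, with Pim2 (−3.62) and Pqbp1 (−4.78), and Magt1, with Atrx (−2.74) and Cox7b (−4.46). At Nsdhl, Mbtps2 and Piga neither neighbour was lower by 2-fold. Mbtps2, at −2.55, lay between Sms (0.41) and Smpx (0.60), and Piga, at −2.65, between Figf (−0.30) and Asb11 (1.09). H3K9me3 calls matched those of the neighbour in 13 of 18 pairs in MEFs and 14 of 18 in EpiSCs, of which 12 and 14 were pairs with both genes lower, where 51.3% and 82.9% of all genes were lower.

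**Figure D5:**
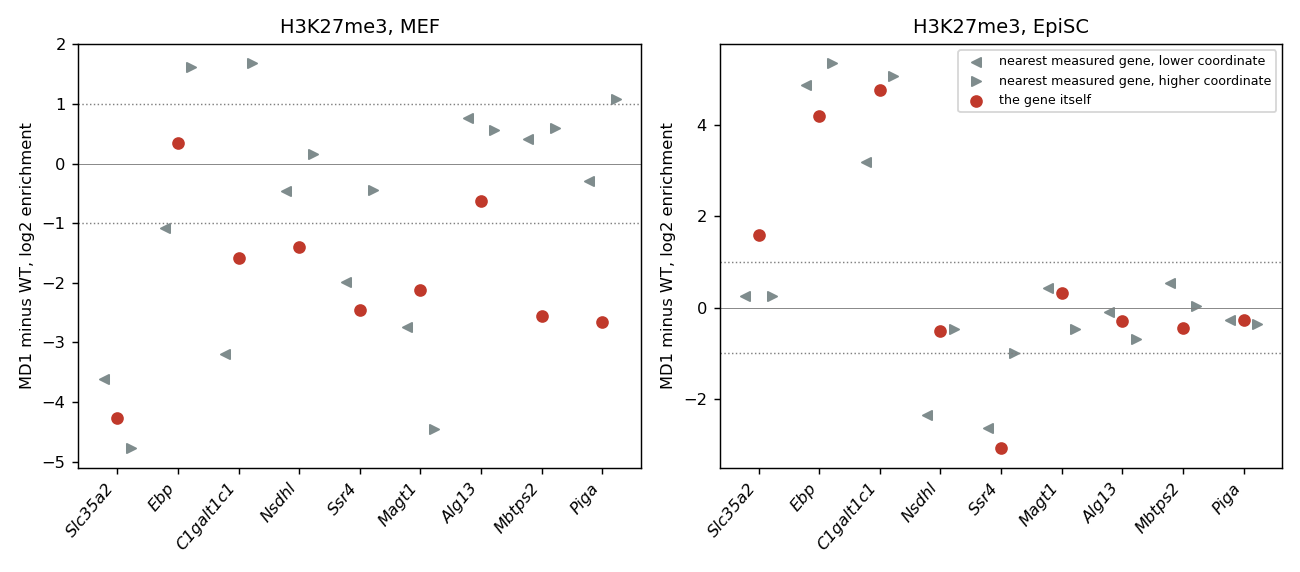
H3K27me3 change, MD1 minus WT in log2 enrichment, for each of the 9 genes (red) and its nearest measured gene on either side (grey triangles) in MEFs (left) and EpiSCs (right). Dotted lines mark 2-fold. In MEFs the red points of Mbtps2 and Piga lie under both neighbours, and in EpiSCs the neighbours of Ebp and C1galt1c1 are high with them.

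Over the 8 libraries, each centred on its median, the gene with the most similar values was a close neighbour for some of the 9. Slc35a2 was nearest to Tfe3, with starts 0.12 Mb apart (Euclidean distance 2.49, where the median over the other genes was 8.77). Ebp was nearest to Porcn (1.91), Magt1 to Atrx (1.07) and Ssr4 to Srpk3 (2.95), each with starts at most 0.17 Mb apart. The others were nearest to genes farther off: Piga to Ofd1 (0.83), Alg13 to Eif1ax (0.76), Nsdhl to Gpc3 (0.81), C1galt1c1 to Acot9 (2.15) and Mbtps2 to Utp14a (1.02). None of the 9 was nearest to another of the 9.

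A list of 14 further X-linked genes of glycan, Golgi, sterol and fatty acid metabolism served for comparison, and all 14 had values in the 8 libraries. H3K27me3 in MD1 MEFs was lower by 2-fold or more in 8 of the 14 and higher in 2 (Chst7, a sulfotransferase, and Slc9a7, a Golgi ion exchanger), where 24.0% of all genes were lower and 22.3% higher, with a median change of −1.63. Ogt, the O-GlcNAc transferase, had −3.62 in MD1 MEFs and 2.50 in WT MEFs, and Atp6ap1, which encodes a proton pump accessory protein, had −2.81 in MD1 and 2.71 in WT. The smallest changes were at Ids, a lysosomal sulfatase (0.29), and Pgrmc1, a membrane protein that binds haem (−0.35). H3K9me3 in MD1 MEFs was at least 2-fold lower in 10 of the 14, against 51.3% of all genes, with the largest changes at Pgrmc1 (−3.23) and Atp6ap1 (−2.79) and the smallest at Hs6st2, a heparan sulfate sulfotransferase (−0.21), and Atp6ap2, another proton pump accessory subunit (−0.70). In MD1 EpiSCs H3K9me3 was at least 2-fold lower in 11 of the 14, a share near the 82.9% of all genes. For H3K27me3 in MD1 EpiSCs 2 of the 14 were lower, against 11.3% of all genes, and 1 was higher, against 22.7%.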

How the data were processed

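Each mark was precipitated with its own mouse monoclonal antibody, and the library kit was NEBNext Ultra II, per the labels' protocols. Reads were handled with cutadapt, BWA and SAMtools on build mm9, according to the submitters' processing notes, which name no role for each. For tool versions, the way reads were counted, and whether a minimum coverage or a pseudocount was used, the sources used here give nothing. The deposited table has log2 enrichment for 952 X-linked genes in 8 ChIP libraries. Starts were read as counting from 0 and are printed counting from 1.

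Whole-number ChIP and input counts were recovered as the smallest pair matching each value (denominator at most 30000, relative tolerance 1e-12, 1 constant per library). Pairs matched 100% of values in each library and at most 0.695% after each value was shifted slightly at random. Tested on counts simulated from each cell type and genotype, the exact counts came back for between 82.9% and 83.7% of 699 to 738 genes. Real counts may be multiples of these pairs and may include a pseudocount. Recovered input was 54 in WT and 486 in MD1 MEFs at Mbtps2, and 20 and 143 at Piga. Summed over genes, input was 237146 in WT and 327173 in MD1 MEFs. Where real counts are multiples, the intervals are wider than counting error requires. Intervals (95%, normal approximation on the log scale) cover counting error only.

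The genes and lists were chosen with earlier results of these data known. The text names the 9 genes, their nearest measured neighbours, the gene with the most similar values and, from the list of 14, those with the 2 largest and 2 smallest MEF changes per mark. Those in the Slc35a2 to Ebp stretch, with Chst7, Slc9a7 and Yy2, were named after their values were seen. Alternatives were centring, a pseudocount of 0.1 on the linear scale, filters on low values and on input counts under 20, and a 3-fold threshold. Python 3.11.15, pandas 2.3.3 and NumPy 2.4.6 were used.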

Additional observations from a re-analysis of the deposited data

Results flagged for a closer look

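The H3K27me3 change at Slc35a2 had opposite directions in the cell types, each beyond counting error: −4.26 in MEFs and 1.58 in EpiSCs, a difference of −5.84. With 1 library per group the difference itself was not tested across samples. The MD1 MEF value rests on a recovered ChIP count of 6, and the MEF change was −3.15 with a pseudocount of 0.1.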

How the results depend on the processing

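With the pseudocount of 0.1, all 36 single-gene changes stayed within their counting intervals, as did the 4 medians within the median interval half-width, and the counts stayed within 1.5 times. The pseudocount still moved the H3K9me3 changes of Slc35a2 (−4.71), Ssr4 (−2.10) and Ebp (−4.24) and the H3K27me3 change of Slc35a2 (−3.15) in MEFs by over 1.5-fold. Centring each library on genes not rich in H3K9me3 left 5 of the 9 at least 2-fold lower in H3K9me3 in MEFs, against 187 of 739. Centring brought 1 gene (Ssr4) to at least 2-fold higher H3K9me3 in EpiSCs, against 38 of 708, and moved the median H3K9me3 change there to −2.84. It turned the median H3K27me3 change in EpiSCs to 0.19. A threshold of 3-fold left 5 genes lower in H3K9me3 in MEFs, and leaving out the lowest 10% of genes left 1 higher in H3K27me3 in EpiSCs, since Ebp and C1galt1c1 were left out. Shares of all genes under these settings are not given here. The counts with recovered input of at least 20, which left out C1galt1c1 throughout and Ssr4 in MEFs, stayed within 1.5 times. Of the single-gene changes, 17 of 36 moved beyond their counting interval under centring, which adds 1 constant per library pair. Low counts limit Slc35a2, C1galt1c1 and Ssr4 in MEFs, C1galt1c1 in EpiSCs, and H3K9me3 in MD1 EpiSCs as a whole, where the median recovered ChIP count per gene was 13. They also limit H3K9me3 at Ebp in MD1 MEFs and at Ssr4 in WT EpiSCs. All of these are recovered counts, the smallest that match, so the real counts may be higher. No paired analysis was possible because each group holds 1 library.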
